A study of Mus musculus with 64 samples.

Results

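Chd2, the neighbouring long noncoding RNA gene Chaserr and 6 further genes of the CHD family (Chd1, Chd3, Chd4, Chd6, Chd7 and Chd9) were examined as targets of transposon insertions in mouse lymphomas and tails. These 8 genes, of 23986 annotated on the chromosomes analysed, were selected on the insertions they carry in the same 64 samples, so their insertion numbers, and any contrast of those numbers, are a description and no test is read from them. The gene labels of the deposited table assign 314 of its 385883 lines to the 8 genes, and their annotated extents hold 344 of the 299625 insertions kept. Orientation, position within the gene and reads per insertion are not part of the rule by which the genes were selected, and they were tested.

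CHD proteins are ATP-dependent chromatin remodellers that recognise histones through paired chromodomains and move or exchange nucleosomes through an SNF2-type helicase motor. CHD2 acts at active genes and is recurrently mutated in chronic lymphocytic leukaemia, a tumour of B cells. Chaserr is transcribed from just upstream of Chd2, on the same strand, and its transcription keeps Chd2 expression low in cis.

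The study compared diffuse large B cell lymphomas (30 with PiggyBac, PB, and 11 with Sleeping Beauty, SB) with tails (12 and 11) of mice of mixed strain background, and most tumours are labelled as spleen, LN, MES LN or MES MASS. The mobilised transposons, of ITP lines, carry gene traps for both orientations, are meant to inactivate the genes they enter, and are cut into TTAA sites by PB and into TA sites by SB. PB mice carried the PB transposase knocked into Rosa26 and an ITP line, and SB mice the SB transposase at Rosa26 with ITP1-C or ITP2-M. Both parents of the SB mice were homozygous for the Blm m3 allele, which lowers a helicase that guards against recombination. Whether PB mice carried this allele, and the ITP line and age of each sample, are not given in the labels, and a difference between PB and SB mice cannot be assigned to the transposase alone.

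Lines of a sample at 1 motif site count as 1 insertion. The PB tumours had between 757 and 10800 insertions (median 4283.5) and between 60551 and 5721832 reads on them (median 136578.5). The PB tails had between 2035 and 7362 insertions (median 3547.5), the SB tumours between 760 and 8786 (median 3836) and the SB tails between 2537 and 7148 (median 4361). In the sample names the system code and the number after it are run together in some samples (joined) and split in others (separated). Of PB mice, 22 tumours and 5 tails have joined names and 8 and 7 separated ones; all SB tumours are joined, and SB tails divide into 7 and 4. Since the forms may mark batches, values are also given within each where this matters.

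Chd2 lies at chr7:73426652-73541746 (mm10, minus strand), spans 115.1 kb with 39 exons, and holds 703 TTAA and 7353 TA sites. It was hit 60 times in 24 of 30 PB tumours, 19 times in 8 of 12 PB tails, 10 times in 5 of 11 SB tumours and 10 times in 6 of 11 SB tails. Per 10000 insertions of the sample, the PB tumours ranged from 0 to 8.79 with a median of 3.44, and the PB tails from 0 to 10.3 with a median of 2.82. The 2 ranges overlap almost completely, and both groups include samples with no insertion in the gene. The SB tumours ranged from 0 to 7.82 (median 0) and the SB tails from 0 to 7.88 (median 1.52). The mean rate in PB tumours was 3.65 ± 2.62 (SD, n = 30) per 10000 and in PB tails 3.86 ± 4.003 (SD, n = 12), so the groups differed by far less than the spread of their samples. The SB means, 1.79 ± 2.53 for tumours (SD, n = 11) against 2.15 ± 2.61 for tails (SD, n = 11), again differ by less than the spread. Within joined names the PB means were 3.84 in tumours and 3.05 in tails, and within separated names 3.15 and 4.44, so the order of the tissues is not the same in the 2 forms. The 6 PB tumours without an insertion in Chd2 had between 757 and 5796 insertions in all. The tissue of origin was not tested: in PB mice Chd2 was hit in 5 of 6 tumours of the spleen, in 5 of 5 labelled LN, in 8 of 9 labelled MES MASS and in 3 of 6 labelled MES LN.

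**Figure D1:**
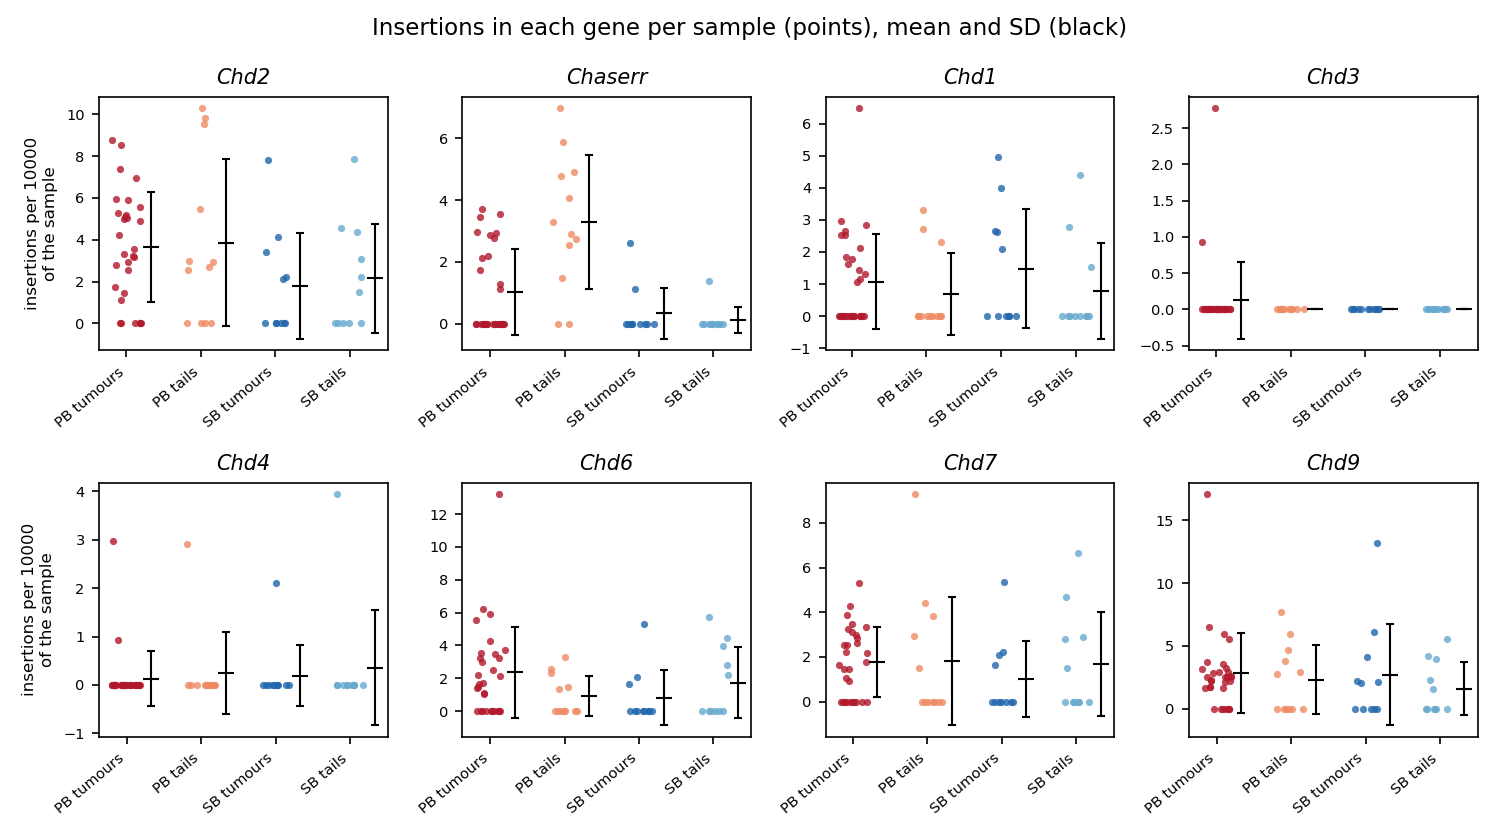
Insertions in each of the 8 genes per 10000 insertions of the sample, 1 point per sample in the 4 groups, with the mean and SD in black (lower bars may pass below 0). Chd2 has a mean of 3.65 in PB tumours and 3.86 in PB tails, while Chaserr has 1.02 in PB tumours and 3.30 in PB tails.

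Chaserr lies at chr7:73539798-73558395, also on the minus strand, spans 18.6 kb with 5 exons and 251 TTAA sites, and shares its last 1.95 kb with the start of Chd2. It was hit 21 times in 12 of 30 PB tumours and 17 times in 10 of 12 PB tails, but only 2 times in 2 SB tumours and once in 1 SB tail. Per 10000 insertions, the PB tumours ranged from 0 to 3.70 with a median of 0, and the PB tails from 0 to 6.98 with a median of 3.11. Most tails were thus above the typical tumour, although the ranges overlap and 2 tails had none. The means were 1.02 ± 1.38 (SD, n = 30) in PB tumours and 3.30 ± 2.17 (SD, n = 12) in PB tails. Within joined names they were 1.13 and 2.73, and within separated names 0.746 and 3.71, with tails the higher in both forms. In the deposited gene labels these PB insertions are hidden: all 35 PB lines inside Chaserr and outside Chd2 are labelled intergenic, whereas the 3 SB lines there carry the gene's former symbol 1810026B05Rik. Of all kept PB insertions within single RefSeq long noncoding RNA genes 45.0% bear the intergenic label, and of those within single protein-coding genes 4.65%.

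In PB tumours the 2 genes were hit in the same sample in 11 cases, of which 1 (PB tumour 27) has in Chaserr only an insertion in the shared 1.95 kb that counts for both, and at least 1 of them was hit in 25 of 30. In PB tails both were hit in 8 of 12 and at least 1 in 10 of 12. All 30 PB tumours, 12 PB tails and 11 SB tumours and 10 of 11 SB tails had an insertion in at least 1 of the 8 genes. PB tumour 3, which has the most insertions (10800) and the most reads (5721832) of its group, is the only sample with an insertion in each of the 8.

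The other members are spread over 6 chromosomes. Chd9, a relative of CHD7 known as a coactivator of nuclear receptors, spans 226.2 kb on chromosome 8 and was hit 45 times in 24 PB tumours and 12 times in 6 PB tails. Chd6 (chromosome 2, 162.1 kb), of the same subfamily, was hit 31 times in 20 PB tumours and 5 times in 5 PB tails. Chd7 (chromosome 4, 178 kb), whose human counterpart is mutated in CHARGE syndrome, was hit 29 times in 20 PB tumours and 8 times in 5 PB tails. These 3 long genes thus reached as many PB tumours as the shorter Chd2, or nearly so. Chd1 (chromosome 17, 67.65 kb), which binds histone H3 trimethylated at lysine 4, was hit 17 times in 14 PB tumours, 3 times in 3 PB tails, 7 times in 5 SB tumours and 4 times in 3 SB tails. Chd3 and Chd4 encode the alternative motors of NuRD, the nucleosome remodelling and deacetylase complex, and had few insertions, as their few sites allow. Chd3 (chromosome 11, 26.23 kb, 66 TTAA sites) was hit 2 times in 2 PB tumours and in no other group, and Chd4 (chromosome 6, 34.61 kb, 127 TTAA sites) was hit 2, 1, 1 and 1 times in the 4 groups. Per 10000 insertions, PB tumours ranged from 0 to 17.1 in Chd9 (median 2.51), from 0 to 13.2 in Chd6 (median 1.70), from 0 to 5.32 in Chd7 (median 1.70) and from 0 to 6.49 in Chd1 (median 0). The highest rates of Chd6 and Chd1 are each 1 insertion in a sample with few, PB tumour 13 (757 in all) and PB tumour 28 (1542). The PB tails ranged from 0 to 7.67 in Chd9 (median 1.36), and their medians were 0 in Chd6 (highest 3.31), Chd7 (9.28) and Chd1 (3.31). All of these ranges overlap widely between the tissues. The mean Chd9 rate within joined names was 3.47 in PB tumours and 2.12 in PB tails, but within separated names 1.19 and 2.45. For Chd7 it was 1.68 and 2.15 within joined names, and 2.0 and 1.59 within separated names. The order of the tissues thus changed with the name form in both genes, in opposite ways. For Chd6 and Chd1 PB tumours had the higher mean in both forms. The Chd1 mean of tumours with separated names (1.18, against 0.722 in tails) includes the 1 insertion of PB tumour 28. In SB mice Chd6 was hit 4 times in tumours and 8 in tails, Chd7 5 and 8 times and Chd9 6 and 8 times. Of the 8 Chd6 insertions in SB tails, 6 were in the 4 tails with separated names, a form that no SB tumour has. Within joined names the mean Chd6 rate was 0.826 in SB tumours and 0.634 in SB tails.

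Insertions were set against the number expected from a gene's share of the motif sites of its chromosome. Chd2 had 8.13 times the expected 7.38 insertions in PB tumours and 8.33 times the expected 2.28 in PB tails, 5.03 times in SB tumours and 4.37 times in SB tails. The excess at Chd2 was therefore of the same order in tails and in tumours of each system. Chaserr had 7.97 times the expected 2.64 insertions in PB tumours and 20.9 times the expected 0.814 in PB tails. In PB tumours Chd9 had 2.91 times, Chd7 2.54 times, Chd6 2.40 times, Chd1 2.40 times, Chd3 1.86 times and Chd4 1.39 times the expected insertions. The value of Chd9 there was 3.36 within joined names and 1.22 within separated names. Among genes with at least 1 expected insertion the median ratio was 1.22 in PB tumours (10560 genes), and the ratio of Chd2 exceeded that of 99.2% of them. In PB tails the median was 1.12 (4820 genes) and Chd2 exceeded 99.7% of them. In PB tails Chd9 was at 2.31, Chd7 at 2.20, Chd1 at 1.47 and Chd6 at 1.23 times the expectation. Chd4 was at 2.32 times there, which is 1 insertion where 0.432 were expected.

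By a Wald test on a Poisson fit, one-sided and Bonferroni-adjusted, 4.97% of 22558 genes were called in PB tumours, 1.25% in PB tails, 0.398% of 23859 genes in SB tumours and 0.18% in SB tails. Of the 8 genes, 5 were called in PB tumours (Chd2, Chaserr, Chd6, Chd7 and Chd9), 2 in PB tails (Chd2 and Chaserr) and 1 in each SB group (Chd2). Since these genes were chosen on such numbers, nothing is read from these counts. Only the call of Chd2 in PB tumours was kept under every other setting tried. That of Chaserr in PB tails was lost only when the deposited gene labels were used. These mark its PB lines outside Chd2 as intergenic, so that loss was fixed beforehand. An exact Poisson test lost both SB calls of Chd2, which rest on 10 insertions each, and those of Chd6 and Chd7 in PB tumours, and counting presence per sample lost these, Chd9 in PB tumours and Chd2 in PB tails.

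Tumours and tails of each system were compared gene by gene with edgeR's quasi-likelihood test, again as a description for these genes. It called 4.34% of 3502 genes in PB mice and 0.866% of 1155 in SB mice after Benjamini-Hochberg adjustment, and none of the members. For Chd2 the log2 fold change, tumours over tails, was -0.03 with an approximate SE of 0.40 (edgeR, adjusted p = 0.98) in PB mice and 0.16 with an SE of 0.61 (adjusted p = 0.93) in SB mice. The SB sign is opposite to that of the mean rates, which weigh samples of few and many insertions alike, and the same holds for Chd9 in SB mice (mean rates 2.71 in tumours and 1.60 in tails) and Chd7 in PB mice (1.76 and 1.83). The median log2 fold change over all PB genes tested was 0.19, and it moved to 0.41 with TMM scaling, where that of Chd2 was 0.23. For Chaserr the PB value was -1.26 with an SE of 0.47 (edgeR, adjusted p = 0.09, unadjusted p = 0.007), the lowest of the members, and it did not pass. Over the 9 settings tried this value ran from -1.86 to -0.87 and passed in none (edgeR or DESeq2, adjusted p from 0.056 to 0.61). Chd6 had a log2 fold change of 0.79 (adjusted p = 0.49), Chd1 0.60 (adjusted p = 0.65), Chd9 0.20 (adjusted p = 0.85) and Chd7 0.13 (adjusted p = 0.91) in PB mice. In SB mice the values were 0.81 for Chd1, -0.64 for Chd6, -0.39 for Chd7 and -0.13 for Chd9 (adjusted p from 0.80 to 0.94). Chd3 and Chd4 had too few insertions to be tested in either system, and so had Chaserr in SB mice.

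**Figure D2:**
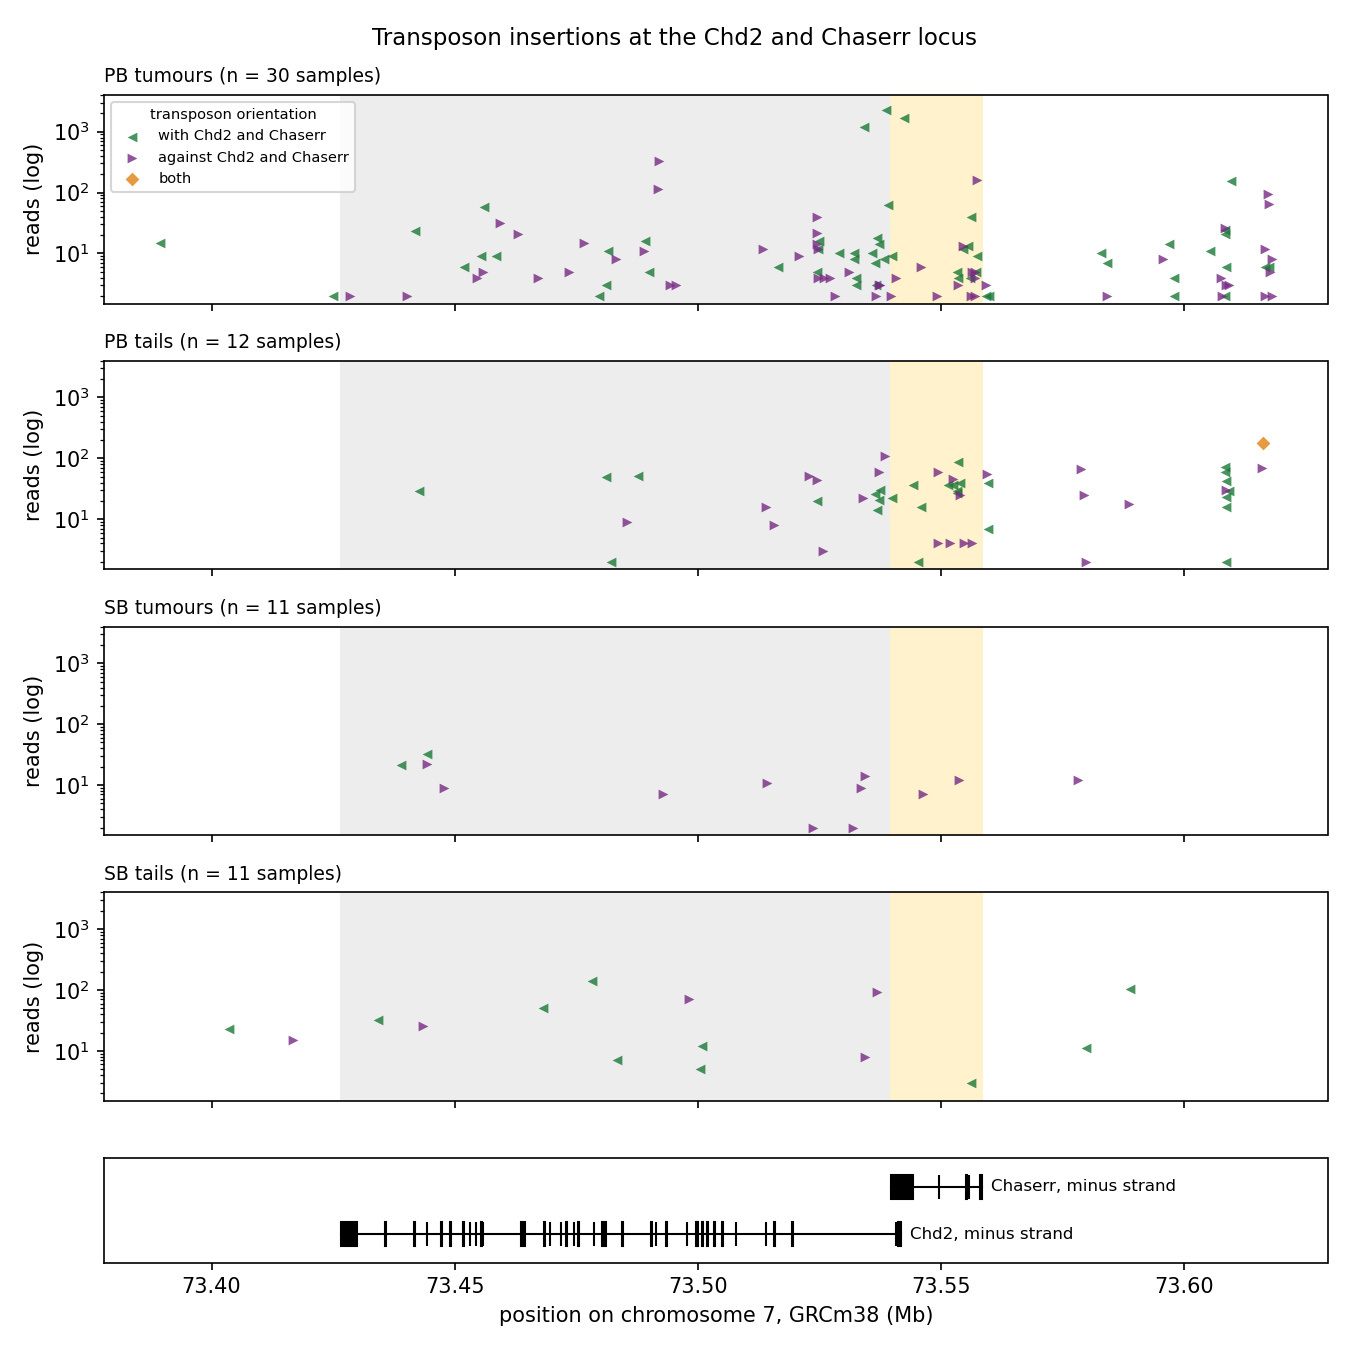
Insertions around Chd2 (grey) and Chaserr (yellow; shared bases are drawn yellow) on chromosome 7 in the 4 groups, with reads per insertion on a log axis and symbols for the transposon's orientation; exons are drawn below as boxes. Both orientations occur along the locus, and PB insertions are dense from the first 20 kb of Chd2 through Chaserr.

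Along the locus, PB insertions were dense from the 5′ end of Chd2 through Chaserr and beyond, in tumours and tails alike. The first 20 kb of Chd2 held 32 insertions of 18 PB tumours and 12 of 6 PB tails, which is 18.9 and 23 times the expectation. The remaining 95.1 kb held 28 and 7, or 4.92 and 3.98 times. The 60 kb upstream of Chaserr, which holds no RefSeq gene with a curated transcript, had 30 insertions of 18 PB tumours and 17 of 10 PB tails, 8.26 and 15.2 times the expectation, against 1 in SB tumours and 2 in SB tails. The 60 kb downstream of Chd2 had 2 insertions in PB tumours and 0 in PB tails. In this upstream stretch the transposons lay 15 and 15 with and against the direction of the 2 genes in PB tumours, and 9 and 7 in PB tails, where 1 more had lines on both strands. There 4 TTAA sites from 49.99 to 50.39 kb upstream of Chaserr were each hit in 2 to 4 PB samples. These windows were drawn after the positions had been seen. Of the 11 other RefSeq genes with a curated transcript within 500 kb of Chd2, none had more than 3 insertions in PB tumours or more than 2 in PB tails, and none was called in any group.

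Introns hold 677 of the 703 TTAA sites of Chd2, and most of its insertions lay there too. In PB tumours 56 were intronic and 4 exonic, in PB tails 17 and 2, in SB tumours 8 and 2 and in SB tails 10 and 0. Intron 2 (chr7:73519709-73540771, 21.1 kb), which follows the exon with the start codon, took 32 of 60 insertions in 19 PB tumours (53.3%) and 12 of 19 in 6 PB tails (63.2%) with 23.5% of the TTAA sites. Of the PB tails, tail 8 alone gave 7 of the 19 Chd2 insertions and 5 of the 12 in intron 2. In SB mice it took 4 of 10 insertions in tumours and 2 of 10 in tails with 19.9% of the TA sites. The intron 2 excess was thus seen in both PB tissues; intron 2 was singled out after its counts were seen and carries no test. Of the exonic insertions of PB tumours, 1 was in the 5′ UTR in exon 2, 2 in coding exons 18 and 30 and 1 in the 3′ UTR in exon 39. The same TTAA in exon 18 was hit in PB tumour 17 and PB tail 10, both in the gene's orientation. In SB tumours 2 and 3 the 2 exonic insertions were both in coding exon 36. In Chaserr, 10 of 21 insertions of PB tumours were in intron 1 and 5 in intron 3, whereas in PB tails 1 of 17 was in intron 1 and 10 in intron 3; the difference was not tested. The distance from the start of Chaserr was 2.68 kb at the median in PB tumours and 5.94 kb in PB tails.

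Among the other members, intron 1 of Chd6 took 13 of 31 insertions in PB tumours (41.9%, with 30.5% of the TTAA sites) and intron 1 of Chd7 took 10 of 29 (34.5%, with 34.8%). In Chd9, introns 1 and 3 took 10 and 12 of 45 (22.2% and 26.7%, with 6.45% and 12.5% of the sites), and in Chd1 intron 2 took 5 of 17 (29.4%, with 25%). Of these introns, those of Chd9 stood furthest above their share, and as in Chd2 they were picked after the counts were seen. At the median, insertions of PB tumours lay 17.25 kb from the start of Chd2, 52.17 kb from that of Chd1, 54.26 kb in Chd6, 112.5 kb in Chd7 and 127.4 kb in Chd9.

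The test of position divided each gene at its middle motif site and set insertions on the 5′ side against those on the 3′ side, with the sample as the unit (exact sign-flip permutation test, two-sided, all genes with at least 10 insertions in at least 6 samples). In PB tumours 0.625% of 2719 genes passed after Benjamini-Hochberg adjustment, 12 toward the 5′ and 5 toward the 3′ side, and none of the 6 members tested was among them, although Chaserr and Chd1 were hit in too few samples to pass alone. Chd2 had 39 insertions on the 5′ side and 21 on the 3′ side (exact p = 0.033, adjusted p = 0.38), and Chaserr 16 and 5 (exact p = 0.016, adjusted p = 0.27). Chd9 had 29 and 16 (exact p = 0.13), Chd6 21 and 10 (exact p = 0.099), Chd7 12 and 17 (exact p = 0.52) and Chd1 7 and 10 (exact p = 0.65). A lean to the 5′ side was common in PB tumours (59.3% of the 2719 genes), and 296 genes leaning either way had an unadjusted exact p under 0.05, so these splits do not set the locus apart. In PB tails the split was 14 to 5 in Chd2 (exact p = 0.19), 11 to 6 in Chaserr (exact p = 0.18) and 10 to 2 in Chd9 (exact p = 0.031, the smallest p that 6 samples allow). There 0% of 479 genes passed, with 33 at an unadjusted p under 0.05. In SB tumours 0% of 330 and in SB tails 0% of 438 genes passed the same exact test, with 14 and 12 at an unadjusted p under 0.05. The smallest p that any gene could reach was 0.00049 in PB tails and 0.00098 in each SB group, above the 0.0001, 0.00015 and 0.00011 that a single gene would need to pass there, so the absence of calls in these 3 groups carries little weight in any of the exact tests. In PB tumours 678 of the 2719 genes (24.9%) could reach the 1.8e-05 needed alone, among them Chd2, Chd6, Chd7 and Chd9, but Chaserr and Chd1, with smallest possible p of 0.00049 and 0.00012, could not. No member could be tested in SB tumours, and in SB tails Chd2 was split 5 to 5.

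Orientation was close to even in the members tested in PB tumours. A transposon with traps on both strands can stop a transcript in either orientation. In PB tumours Chd2 had 29 insertions in its own orientation and 31 against it (exact sign-flip permutation test, p = 0.89), and Chaserr 10 and 11 (exact p = 1). The splits were 13 and 18 in Chd6 (exact p = 0.47), 20 and 25 in Chd9 (exact p = 0.57), 9 and 8 in Chd1 (exact p = 1), and 17 and 11 in Chd7 (exact p = 0.21), where 1 further insertion had lines on both strands. In PB tails Chd2 had 10 and 9, Chaserr 10 and 7 and Chd9 8 and 4, and the untested Chd7, Chd6 and Chd1 had 4 and 4, 1 and 4, and 0 and 3. No gene passed this exact test after adjustment in any group (0% of 2719, 479, 330 and 438 genes, with the limits just given), while 81, 16, 2 and 13 had an unadjusted p under 0.05. The 10 Chd2 insertions of SB tumours were 2 in the gene's orientation and 8 against it, in 5 samples, too few for the test, as were the 6 and 1 of Chd1, and the Chd2 insertions of SB tails were 6 and 4 (exact p = 0.75).

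Reads per insertion give a rough order of how much of a sample's DNA carries each insertion, although without molecular identifiers many PCR reads may stem from 1 molecule. The median Chd2 insertion had 8 reads in PB tumours (range 2 to 2271), 22 in PB tails (2 to 108), 10 in SB tumours (2 to 32) and 29 in SB tails (5 to 142). The 3 most covered were thus in PB tumours, while most insertions of both tissues had few reads. For Chaserr the medians were 5 reads in PB tumours (2 to 1704) and 27 in PB tails (2 to 86). PB tumour 29 had 2271 reads at chr7:73538703 in intron 2, its 13th most covered insertion and 0.829% of its reads. PB tumour 19 had 1184 reads at chr7:73534222, also in intron 2, which ranked 5th in the sample and held 1.43% of its reads. Both were in the orientation of Chd2, and both tumours had a second insertion in the gene. PB tumour 16 had 329 reads against the gene's orientation in intron 14, rank 30. In Chaserr the most covered insertion had 1704 reads at chr7:73542477 in exon 5, but it came from the deeply sequenced PB tumour 3, where it ranked 142nd with 0.0298% of the reads. Elsewhere in the family, PB tumour 8 had 1478 reads in intron 5 of Chd7 (rank 21, 0.984% of its reads) and PB tumour 15 had 452 in intron 31 of Chd9 (rank 39). Of the 207 gene hits in PB tumours, the one of PB tumour 19 in Chd2 was alone among the 10 most covered insertions of a sample.

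**Figure D3:**
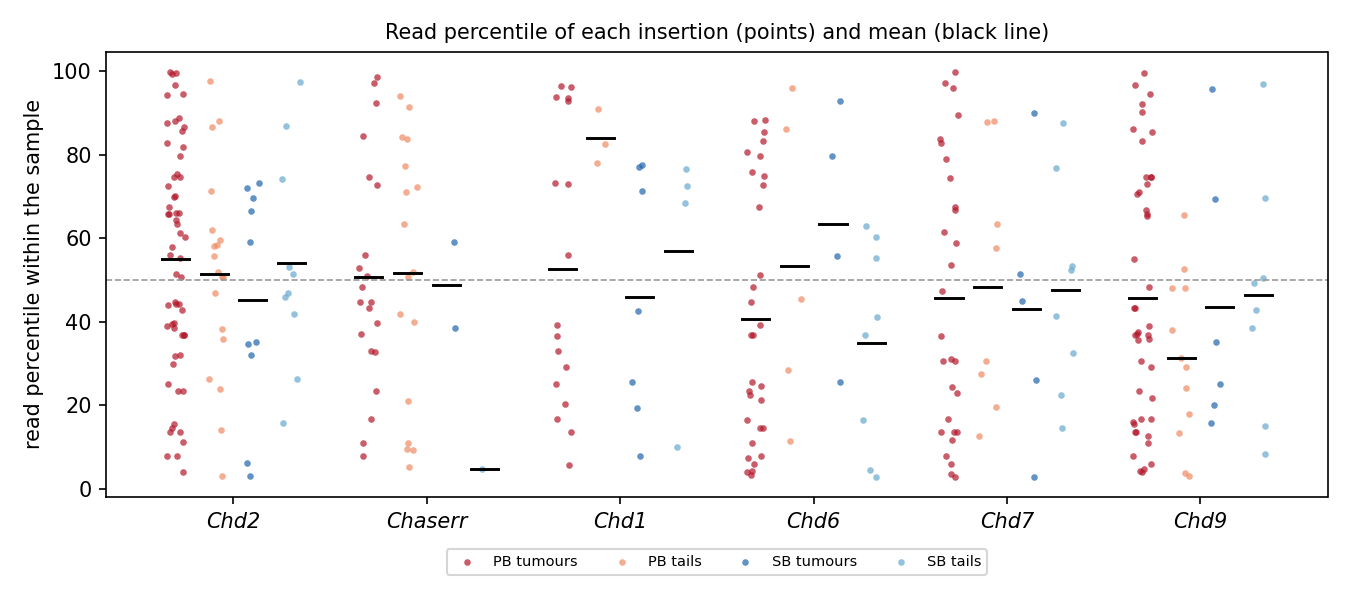
Read percentile of every insertion within its own sample for the 6 genes with the most insertions, by group, with the mean as a black line and the dashed line at 50. The means of Chd2 lie at 54.9 in PB tumours, 51.5 in PB tails, 45.2 in SB tumours and 54.0 in SB tails.

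Ranked within each sample, Chd2 insertions had a mean read percentile of 54.9 in PB tumours (exact sign-flip permutation test against 50, p = 0.23) and 51.5 in PB tails (exact p = 0.80). For Chaserr the means were 50.6 (exact p = 0.93) and 51.6 (exact p = 0.78). The other members tested in PB tumours were at 52.6 in Chd1, 45.8 in Chd9, 45.6 in Chd7 and 40.6 in Chd6 (exact p from 0.12 to 0.74), and in PB tails Chd9 was at 31.2 (exact p = 0.062). These values scatter around the middle of the samples' insertions. No gene passed in any of the 4 groups (0%), within the same limits, with 168 of 2719 genes in PB tumours, 18 of 479 in PB tails, 18 of 330 in SB tumours and 16 of 438 in SB tails at an unadjusted p under 0.05. Between tumours and tails, limma on the mean percentile per sample gave a difference of 3.39 percentile points for Chd2 (SE 7.54, adjusted p = 0.99) and -1.02 for Chaserr (SE 9.34, adjusted p = 0.99) in PB mice. Chd9 was 14.6 points higher in tumours (SE 9.30, adjusted p = 0.97) and Chd1 had -31.3 points (SE 17.9, adjusted p = 0.97). Chd6 had -12.8 points (SE 13.8) and Chd7 -2.78 (SE 11.4) in PB mice, and neither passed. In SB mice Chd2 had -8.79 points (SE 13, adjusted p = 0.99). The other members there had 28.5 in Chd6 (SE 17.8), -10.9 in Chd1 (SE 18.2), -4.59 in Chd7 (SE 16.6) and -2.9 in Chd9 (SE 15.7). By limma, 0% of 2604 genes in PB mice and 0% of 1364 in SB mice passed, with 123 and 68 at an unadjusted p under 0.05.

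PB returned to the same TTAA in several samples. The 79 PB insertions in Chd2 fell on 70 distinct sites, of which 5 were hit in more than 1 sample and took 17.7% of the insertions. In Chaserr 38 insertions fell on 31 sites, of which 6 were shared and took 34.2%. Of all 205023 PB insertions kept 8.91% lay on shared sites, but this share grows with insertions per site, on which these genes were chosen, so it is no reference for them and the shares are a description. The 20 SB insertions in Chd2 lay on 20 distinct TA sites, and of all SB insertions 1.38% were on shared sites. SB has more motif sites (7353 TA against 703 TTAA in Chd2) and fewer insertions (94602 against 205023), so these shares do not compare the 2 systems. Chd9 had 6 shared sites (22.8% of 57 insertions), Chd1 3 (30% of 20), Chd7 1 (8.11% of 37) and Chd6 1 (5.56% of 36). Sites hit in at least 4 PB samples are rare, 253 of the 195142 distinct sites, and 2 of them are in intron 2 of Chd2, each with 2 tumours and 2 tails. The sequences of 5 shared sites along the locus, among them those hit in the most samples, are given to show where PB returned, with 10 bases on each side, read on the minus strand of mm10, with the TTAA in capitals.
Chd2 intron 2, chr7:73524441-73524464, in 2 PB tumours and 2 PB tails: aaagtctagtTTAAgaaagactgc
Chd2 intron 2, chr7:73537254-73537277, in 2 PB tumours and 2 PB tails: agtggggtagTTAAagaaatgttc
Chd2 exon 18, chr7:73481045-73481068, in 1 PB tumour and 1 PB tail: tctggcttccTTAAtatcgtgatg
Chaserr intron 3, chr7:73553294-73553317, in 1 PB tumour and 2 PB tails: tttcactgctTTAAagatgatgag
Upstream of Chaserr by 50.4 kb, chr7:73608778-73608801, in 1 PB tumour and 3 PB tails: atgaaggcaaTTAAggacatggcc
At the first of these Chd2 sites the reads ran from 14 to 44, with 1 insertion in the gene's orientation and 3 against it, and at the second from 3 to 60, with 2 in each. Of the 5 shared sites of Chd2, 3 had a tail among their samples and 2 had tumours only. Each sample has its own identifier, and no tumour shares one with a tail.

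The rates of Chd2 over the 30 PB tumours were set against those of the 1115 genes at least 1 Mb away with at least 20 insertions in this group. The highest Spearman correlations were with Cacna1e (0.57), Ube2d3 (0.56), Fli1 (0.56), Cnot6 (0.54) and Sik2 (0.53). All points share the samples' depth, and these are the top of 1115 values, so they describe the likeness only. With the other members the correlation was 0.29 for Chaserr, 0.31 for Chd1, 0.29 for Chd9, 0.05 for Chd7 and -0.21 for Chd6.

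Other remodeller genes give the setting of the family. Of 35 genes in 5 lists, 31 lie on the chromosomes analysed, and 10 of these were called in PB tumours and 1 in SB tumours, where 4.97% and 0.398% of all genes were. Of the further CHD genes, Chd1l had 3 insertions and Chd5 1 in PB tumours, and Chd8 lies on the donor chromosome 14, where the expectation does not hold. Among 11 NuRD subunits, the partners of Chd3 and Chd4, 4 were called in PB tumours: Gatad2b (26 insertions, 4.39 times the expected), Gatad2a (16, 4.27 times), Mbd2 (16, 3.71 times) and Rbbp4 (11, 4.56 times). Gatad2b was also the one called in SB tumours, with 8 insertions in 6 samples. The median ratio of the 11 subunits was 4.07 in PB tumours and 0.919 in PB tails, against 2.47 and 2.25 over the 8 genes described here and 0.758 and 0 over all genes, many of which expect less than 1 insertion (1.22 and 1.12 over those that expect at least 1). In SB mice the order of the medians was the other way, with 1.55 in tumours and 2.52 in tails for the subunits. Most subunits expect less than 1 insertion in PB tails and in both SB groups, and several had none there. Their medians in these groups thus rest on few insertions. All 11 subunits together had 101 insertions in PB tumours where 30.01 were expected, and 19 in PB tails where 9.37 were. In SB tumours they had 17 where 8.06 were expected, and in SB tails 21 where 9.64 were. Set against expectation, these SB sums differed little between the tissues. Of 8 genes of ISWI ATPases and partners 5 were called in PB tumours, namely Baz2b (83 insertions), Bptf (38), Baz1a (35), Smarca5 (27) and Rsf1 (25). Of 5 INO80 and SWR1-like genes Ep400 was called (19 insertions), and of 5 other SNF2 ATPases none was, by the same Wald test. None of these list genes was called in PB tails except Smarcad1, with 12 insertions in 5 tails. These counts were not tested as sets.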

How the data were processed

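Insertions were read from the table the authors deposited, whose lines give a position on mm10, strand, gene label and raw counts of reads (QiSeq, splinkerette PCR). The aligner and caller are not given in the sources used here. The normalized coverage (1 column) was not used. Each position was placed on the closest motif (TTAA for PB, TA for SB), at most 5 bp away. Sex chromosomes and donor chromosome 14 were left out. Genes were those of RefSeq on GRCm38.p6 with at least 1 curated transcript, and genes with model transcripts only were left out. Exons are of the longest curated transcript, and sequences come from the same assembly. Expected insertions followed the site share of each chromosome, and calls needed a Bonferroni-adjusted p under 0.05 and hits in at least 3 samples and 5% of samples. edgeR 4.0.16 (total insertions as library size, at least 10 insertions), limma 3.58.1 (hit in at least 3 samples per group, weighted by insertions) and DESeq2 1.42.0 ran in R 4.3.3, exact tests in Python 3.11.15 with numpy 2.4.6, pandas 2.3.3 and scipy 1.17.1. Scripts were tested on simulated data. Other tests, read minima, scalings, name forms and shared sites were tried as alternatives. Genes named are the 8 genes, the 3 list genes with most insertions in PB tumours, list genes called in tumours and the 5 genes most correlated with Chd2; Smarcad1, Chd1l, Chd5 and Chd8 were added after their values were seen. Members and lists were chosen with earlier results of these data known. P-values of the exact sign-flip, edgeR, DESeq2 and limma tests measure the spread between these samples. Those of the Wald and exact Poisson tests pool the insertions of a group, treat each as independent and do not measure that spread.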

Additional observations from a re-analysis of the deposited data

How the results depend on the processing

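Under other settings 409 values counted as unchanged, which for a mean per sample allows a shift of up to 1 SD, 47 were reversed, 29 were weaker, 27 moved and 3 were stronger. With at least 10 reads the mean of Chd2 in PB tumours fell from 2 to 0.833 insertions per sample, that of Chd9 from 1.5 to 0.567, Chd6 from 1.03 to 0.2, Chd7 from 0.967 to 0.267 and Chaserr from 0.7 to 0.2, against 1.42 to 1 for Chaserr in PB tails. A read minimum lowers all counts, and the ratios to expectation at this setting were 9.67 for Chd2 (8.13 before), 3.02 for Chd9 (2.91), 1.26 for Chd6 (2.40), 1.93 for Chd7 (2.54) and 6.50 for Chaserr (7.97) in PB tumours. All reversed values had an adjusted p of at least 0.63, and the cause of the shifts was not tested.

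Genes called as above the expectation from motif sites are given for tumours and tails of PB, then of SB mice. They numbered 2852, 879, 307 and 167 with Benjamini-Hochberg adjustment, 646, 83, 33 and 13 with an exact Poisson test and 428, 86, 12 and 9 counting presence per sample. Such a call, made in tails as well, does not by itself show selection. With at least 10 reads there were 480 in PB tumours, with joined names 74 in PB tails, with separated names 209 in PB tumours, 144 in PB tails and 17 in SB tails, and by the Gene column 69 in SB tails. Ratios fell below 1 in SB tails for Chd6 (0.889, joined names), Chd7 (0.893, separated names) and Chd9 (0.927, presence), and to 0 for Chaserr in PB tumours and PB tails by the Gene column, where its PB lines are labelled intergenic.

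Insertions, edgeR, PB mice: 82 genes were called with DESeq2, 74 without a minimum of insertions, 29 with joined names and 27 with separated names. The log2 fold change of Chd2 in PB mice was 0.29 with DESeq2, 0.23 with TMM normalization, 0.44 with joined names, 0.0205 with name form as a covariate, 0.0351 with at least 10 reads and 0.36 without the sample with most insertions. Over all 9 settings this value ran from -0.387 to 0.44, so its sign was not fixed. In PB mice Chd9 had -0.0553 (name form as a covariate) and -0.95 (separated names), and at least 10 reads gave Chd6 -0.11 and Chd7 -0.0317. In SB mice DESeq2 called 2 genes, and Chd2 had -0.0668 with DESeq2, -0.0370 with TMM, -0.0266 with at least 10 reads and -0.18 without the sample with most insertions. There Chd9 had 0.17 (joined names), 0.17 (name form) and 0.24 (without that sample), Chd6 0.43 (name form) and Chd7 0.0591 (without that sample). The split of called PB genes, higher and lower in tumours, was 73 and 79 with total insertions, 65 and 17 with DESeq2 and 156 and 49 with TMM, whose median log2 fold changes over all genes were 0.19, 0.40 and 0.41.

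Strand, sense minus antisense: with at least 10 reads Chd2 had 3 in PB tumours. Without the sample with most insertions PB tumours had 2 in Chd2, 1 in Chaserr and -1 in Chd1, and PB tails 0 in Chd2 and -1 in Chaserr. With shared positions left out the difference was 2 in Chaserr, 0 in Chd1 and 0 in Chd9 in PB tumours, and 0 in Chd2 in PB tails. Position: 7 genes were called in PB tumours with at least 10 reads. Over the settings tried, 5′ minus 3′ insertions of Chd9 ran from 1 to 13 in PB tumours and from 2 to 8 in PB tails. Those of Chd2 ran from 9 to 23 and from 4 to 13, and those of Chaserr from 11 to 12 and from 4 to 5.

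Read percentile minus 50: with at least 10 reads 4 genes were called in PB tumours, and Chd2 had -1.50 in PB tumours and -3.00 in PB tails. Without the sample with most insertions Chaserr had -2.20 in PB tumours and -0.296 in PB tails. Insertions above minus below the sample median were -4 in Chaserr and -2 in Chd1 in PB tumours and -1 in Chd2 in SB tails. Between tumours and tails, log2 reads against the sample median called 1 gene in PB mice and gave Chaserr 0.73 and Chd7 0.53 in PB mice and Chd1 0.00443 in SB mice. Without weights Chd2 had -2.50 in PB mice, and Chd7 had 8.70 and Chd9 5.84 in SB mice.

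Calls were also lost for Chaserr in PB tumours (at least 10 reads, adjusted p = 0.051; separated names, ratio 5.29, adjusted p = 1), for Chd9 there (at least 10 reads, adjusted p = 0.06; separated names, ratio 1.22, adjusted p = 1), for Chd6 and Chd7 there without the sample with most insertions (adjusted p = 0.28 and 0.067), with at least 10 reads and within each name form (ratios 2.36 and 2.57 for Chd6, 2.46 and 2.86 for Chd7), and for Chd2 in PB tails with joined names (ratio 6.24, adjusted p = 0.082). The SB calls of Chd2 were further lost with at least 10 reads and without the sample with most insertions, and in SB tails within each name form (adjusted p = 1), with ratios in SB tails of 3.82 to 4.95 against 4.37.

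Chd2 in SB mice rests on 10 insertions per tissue. Name form is uneven between tumours and tails. No paired analysis was possible because no tumour shares an identifier with a tail. Reads were not corrected for library or position, and the ITP line of each mouse is not used here.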
